A study of Mus musculus with 16 samples.

Results

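The response of bone marrow-derived macrophages (BMDM) to tumor-conditioned medium (TCM) was compared between WT and Camkk2-/- mice as an interaction of genotype and medium. For each probe set this is the difference between TCM and regular medium (RM) in Camkk2-/- BMDM minus the same difference in WT BMDM, on the log2 scale. A value of 0 means that TCM moved the signal equally in both genotypes, a positive value that the signal ended relatively higher in Camkk2-/- TCM-BMDM, and a negative value that it ended relatively lower. All 16 arrays of the series entered, and 19572 of 28846 probe sets, all those that were not controls and carried exactly 1 gene symbol (19505 genes). Of these, 28 probe sets, each of a different gene, passed the test (limma, Benjamini-Hochberg adjusted p under 0.05), which is 0.143% of those tested. In 10 genes the response was higher in Camkk2-/- BMDM (0.0511% of those tested), with the smallest p for the chemokine gene Cxcl11, and in 18 it was lower (0.092%), with the smallest p for the potassium channel gene Kcnj10 and the sorting receptor gene Sort1. By size, Fn1 had the most negative interaction.

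The arrays fall into 4 groups of 4 biological replicates, which are WT RM-BMDM and WT TCM-BMDM (genotype Camkk2 +/+), and Camkk2-/- RM-BMDM and Camkk2-/- TCM-BMDM (genotype Camkk2 -/-). Marrow came from the long bones of 16 female mice per genotype aged 10 to 12 weeks. Cells of all groups were differentiated for 5 days with 30% medium conditioned by L929 cells, a fibroblast line that secretes the macrophage growth factor CSF1, and the TCM groups also received 20% medium conditioned by the mouse mammary tumor line E0771 by their labels (the methods give a slightly higher share). The knockout is present in all cells of the mouse, so it preceded differentiation. The mice of a genotype were more numerous than the replicates, and neither pooling of mice nor a shared origin of same-numbered RM and TCM cultures is stated. TCM was present throughout differentiation, so a response here is a difference between 2 ways of raising the cells and not a change within 1 culture. As RNA came from whole cultures, fewer cells of a type and less RNA per cell cannot be told apart.

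CaMKK2 is a kinase that is activated by calcium and calmodulin and phosphorylates the kinases CaMKI, CaMKIV, and AMPK. Macrophages raised in tumor-conditioned medium serve as a model of tumor-associated macrophages, because tumor cells release growth factors and chemokines that act on myeloid progenitors. Interferons act on macrophages through STAT transcription factors, which switch on a large shared set of antiviral and chemokine genes.

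Camkk2 itself was examined first, as a check of the labels. Its log2 signal was 9.83, 9.58, 9.82, and 9.11 in WT RM arrays, 9.61, 9.59, 9.14, and 9.68 in WT TCM-BMDM, 7.20, 7.43, 6.07, and 6.26 in Camkk2-/- RM-BMDM, and 7.94, 7.29, 8.15, and 7.24 in Camkk2-/- TCM-BMDM. Every array of Camkk2-/- cells lay below every array of WT cells in both media. The interaction was 0.99 (standard error 0.40, unadjusted p = 0.0211, adjusted p = 0.483), which did not pass the test over all probe sets. The difference between genotypes was −2.85 in RM and −1.85 in TCM, and the response to TCM was −0.08 (adjusted p = 0.951) in WT and 0.91 (adjusted p = 0.0383) in Camkk2-/- BMDM. The exons that this probe set covers are not known here, so it does not measure how much functional transcript was left.

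The cells carried macrophage transcripts in all groups. The mean log2 signal of 8 macrophage markers was 15.65 to 16.02 in WT RM, 16.07 to 16.34 in Camkk2-/- RM, 15.98 to 16.13 in WT TCM, and 15.92 to 16.16 in Camkk2-/- TCM arrays. None of the 8 passed the interaction test, and 3 had a negative interaction at an unadjusted p under 0.05, namely Adgre1 (a macrophage surface receptor, −0.88, adjusted p = 0.144), Csf1r (the CSF1 receptor, −0.58, adjusted p = 0.476), and Itgam (CD11b, −0.48, adjusted p = 0.527). At that level 4.69% of all probe sets were negative. Antigenomic probe sets, which match no mouse sequence, had a median log2 signal of 5.37 over all arrays and of 4.65 to 5.67 in single arrays, and a signal below 5.37 is called below background here. Array medians over all probe sets ran from 5.76 to 5.91. Precision is limited by the number of arrays, and the median standard error of an interaction was 0.28. WT TCM replicates 3 and 1 deviated most from their group mean over all probe sets (SD 0.355 and 0.325, against 0.220 to 0.301 in the other arrays).

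Across all probe sets the responses of the genotypes ran together. The response in WT and the response in Camkk2-/- BMDM, which share no arrays, had a Pearson's r of 0.72 over 19572 probe sets, with a slope of 1.04, as a description, since genes are not independent replicates. The spread of the response was larger in Camkk2-/- BMDM (SD 0.54 over probe sets, against 0.37 in WT). The response passed the test for 2.89% of probe sets in WT and for 11.5% in Camkk2-/- BMDM, and the genotype difference for 0.736% in RM and 4.48% in TCM. These shares do not test whether the genotypes differ in their response, which is what the interaction tests. The interaction had a median of −0.03 and was positive in 45.8% of probe sets. At an unadjusted p under 0.05, 682 probe sets had a higher (3.48%) and 917 a lower (4.69%) response in Camkk2-/- BMDM, 1599 in all.

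The parts of the interaction were then set side by side for the 28 genes. In all 28 the response to TCM passed the test in Camkk2-/- BMDM, with 10 genes up and 18 down, and in 7 it also passed in WT BMDM (Gbp8, BC147527, and Parp10 up, and Gclm, Akr1c18, Man2a2, and Prkcb down). In 24 of the 28 all 4 Camkk2-/- TCM arrays lay outside the range of the other 12 arrays, an arrangement found in 979 of all 19572 probe sets (5%), and since the interaction that chose the genes contains this group, nothing is read from that count. The exceptions were Kcnj10, Pdlim4, Fn1, and Akr1c18. Of these, Kcnj10, Pdlim4, and Fn1 had a genotype difference that passed the test in RM and not in TCM. In them Camkk2-/- RM-BMDM was the group that stood apart. In 20 genes the genotype difference passed in TCM and not in RM, which does not make the genotypes equal in RM. In Lrrc32 and Itgax, for example, the RM arrays did not overlap (differences 0.99 and 0.81, adjusted p = 0.0548 and 0.356). Over all probe sets the genotype difference passed for 4.48% in TCM and 0.736% in RM. In 5 genes it passed in both media, with opposite signs for Sort1, Gpc1, Slc28a2b, and Akr1c18 and with the same sign for Fam20c. Since these differences are the parts of which the interaction is made, they are descriptions. On the linear signal scale the interaction of group means had the same sign in 28 of 28 genes.

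Cxcl11 had the largest interaction among the 28. Where intact, the gene encodes an interferon-inducible ligand of the chemokine receptor CXCR3 that attracts T cells. The GRCm38.p6 annotation of the mouse reference genome lists it as a transcribed pseudogene, so its signal is one of transcript and not of protein. The log2 signals were 3.06, 3.80, 3.02, and 3.97 in WT RM arrays, 6.27, 5.51, 3.65, and 4.69 in WT TCM-BMDM, 4.26, 4.95, 4.64, and 4.54 in Camkk2-/- RM-BMDM, and 11.74, 12.04, 12.13, and 10.45 in Camkk2-/- TCM-BMDM. The last group lay far above all others, whose means were all below background, and WT TCM-BMDM overlapped WT RM-BMDM through replicate 3. The interaction was 5.43 (standard error 0.60, adjusted p = 0.000357). Among Camkk2-/- cells the response to TCM was 6.996 (adjusted p = 3.82e-09), and the response of WT cells was 1.57 (adjusted p = 0.0519), each with a standard error of 0.43. Because the lower groups were at background, 5.43 may not give the size of the difference in transcript.

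Gbp8 and Parp10 are also interferon-inducible. Gbp8 belongs to the guanylate-binding proteins, GTPases that act on intracellular pathogens, and near-identical members of this family may share probes. Log2 signals of Gbp8 were 7.85, 7.90, 8.01, and 8.17 in WT RM arrays, 9.56, 9.66, 9.47, and 10.58 in WT TCM-BMDM, 7.72, 8.25, 8.97, and 8.31 in Camkk2-/- RM-BMDM, and 11.86, 11.66, 12.16, and 12.0004 in Camkk2-/- TCM-BMDM. TCM arrays lay above RM arrays in both genotypes without overlap, and those of Camkk2-/- cells lay above those of WT cells. The response was 1.84 in WT and 3.61 in Camkk2-/- BMDM, with an interaction of 1.77 (standard error 0.35, adjusted p = 0.0417). That call was kept in 2 of the 16 fits that left out 1 array. Parp10, a mono-ADP-ribosyltransferase, had log2 signals of 11.95, 11.99, 12.51, and 12.24 in WT RM arrays, 13.11, 13.48, 12.62, and 13.25 in WT TCM-BMDM, 11.90, 12.14, 12.22, and 12.40 in Camkk2-/- RM-BMDM, and 14.48, 14.55, 14.61, and 14.50 in Camkk2-/- TCM-BMDM. The RM groups overlapped, and the Camkk2-/- TCM arrays were close to each other and above the rest. Its interaction was 1.43 (standard error 0.26, adjusted p = 0.0251), and the call was kept in 7 of the 16 fits that left out 1 array.

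Other genes with a higher response in Camkk2-/- BMDM had varied roles. Sectm1a encodes a secreted and transmembrane protein of a small family of related genes, so its probes may also bind relatives. Its log2 signal was 4.46, 4.28, 4.14, and 4.10 in WT RM arrays, 4.64, 4.57, 4.14, and 4.46 in WT TCM-BMDM, 4.14, 4.66, 3.79, and 3.83 in Camkk2-/- RM-BMDM, and 7.44, 6.81, 7.07, and 5.79 in Camkk2-/- TCM-BMDM. It was below background in every array outside the last group. The interaction was 2.46 (standard error 0.38, adjusted p = 0.00914), and the response in WT BMDM was 0.21 (adjusted p = 0.815). BC147527, for which no role is given here, had log2 signals of 6.67, 6.09, 5.94, and 6.31 in WT RM arrays, 7.41, 7.67, 7.68, and 8.03 in WT TCM-BMDM, 6.55, 7.16, 7.16, and 6.57 in Camkk2-/- RM-BMDM, and 10.57, 10.15, 10.49, and 9.83 in Camkk2-/- TCM-BMDM. It rose with TCM in both genotypes, by 1.44 in WT and 3.40 in Camkk2-/- BMDM, and the TCM groups did not overlap. The interaction was 1.96 (standard error 0.30, adjusted p = 0.00914).

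Slc28a2b, a gene of the concentrative nucleoside transporter family with close paralogs, was lower in Camkk2-/- than in WT cells in RM and higher in TCM. Its log2 signal was 8.44, 8.68, 8.49, and 8.32 in WT RM arrays, 8.76, 8.90, 8.79, and 8.89 in WT TCM-BMDM, 8.01, 7.65, 7.65, and 7.44 in Camkk2-/- RM-BMDM, and 9.81, 9.62, 9.91, and 9.06 in Camkk2-/- TCM-BMDM. The genotypes did not overlap in either medium. The difference between genotypes was −0.79 (adjusted p = 0.0375) in RM and 0.76 (adjusted p = 0.0147) in TCM, and the interaction was 1.56 (standard error 0.25, adjusted p = 0.0134). Akr1c18, which encodes a hydroxysteroid dehydrogenase that inactivates progesterone, was the only called gene whose response passed the test with opposite signs, with −1.03 (adjusted p = 0.00656) in WT and 0.66 (adjusted p = 0.04) in Camkk2-/- BMDM. Its interaction was 1.69 (standard error 0.29, adjusted p = 0.02). All 16 arrays had Akr1c18 signals between 3.16 and 4.96, below background, so the call rests on differences among signals that are not distinguished from those of probes with no target.

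The remaining genes with a higher response were Selenow, Rbl1, and Kcnab1. Selenow encodes a small selenoprotein, and its log2 signal was 12.72 to 13.30 in Camkk2-/- TCM-BMDM against 10.70 to 11.99 in the other arrays (interaction 1.62, standard error 0.29, adjusted p = 0.0241). Rbl1 encodes p107, a relative of the retinoblastoma protein that restrains the cell cycle, and its signal was 11.11 to 11.42 against 9.45 to 10.32 (interaction 1.36, standard error 0.24, adjusted p = 0.0241). Kcnab1, a potassium channel beta subunit, was at 6.35 to 7.56 in Camkk2-/- TCM-BMDM and at 4.52 to 5.54 elsewhere, where all 3 group means were below background (interaction 1.74, standard error 0.32, adjusted p = 0.0259). In each of these genes the response in WT BMDM was between 0.20 and 0.49 and did not pass the test.

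Promoter sequences are shown for 4 of the called genes, as motifs of interferon or stress responses are short enough to be searched. A shared direction is only the sign of the interaction and does not show that the genes moved together. Of the 28 genes, 16 had a window in the RefSeq table for GRCm38.p6 (6 with a higher and 10 with a lower response). A window spans 250 bases before to 50 bases after an annotated start site, which is not always the outermost start of the gene. Capitals mark matches to a motif on either strand. The motifs were GAAANNGAA (interferon-stimulated response element core), TTCNNNGAA (gamma-activated site), TGANTCA (AP-1 site), and TGACNNNGC (antioxidant response element core), and they were chosen after the values had been seen. The sequences of BC147527 and Slc28a2b, genes with a higher response in Camkk2-/- BMDM, hold a match to the interferon-stimulated response element core. The window of Gclm holds a match to the antioxidant response element core on the minus strand, and that of Kcnj10 holds none of the 4 motifs. Windows of Akr1c18, Selenow, Pdlim4, and Fam20c, which are not printed, also hold none of them. Pdlim4 had a smaller unadjusted p than Gclm, so the printed windows overstate how common matches were. The windows lie at chr13:120300142-120300441 (BC147527), chr2:122484691-122484990 (Slc28a2b), chr3:122245307-122245606 (Gclm), and chr1:172340960-172341259 (Kcnj10), all on the plus strand.
BC147527: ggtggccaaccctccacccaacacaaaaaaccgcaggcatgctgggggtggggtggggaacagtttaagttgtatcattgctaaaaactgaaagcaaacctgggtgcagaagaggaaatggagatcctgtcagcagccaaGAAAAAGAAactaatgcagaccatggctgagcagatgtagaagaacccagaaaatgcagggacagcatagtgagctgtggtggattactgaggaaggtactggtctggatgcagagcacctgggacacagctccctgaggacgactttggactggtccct
Slc28a2b: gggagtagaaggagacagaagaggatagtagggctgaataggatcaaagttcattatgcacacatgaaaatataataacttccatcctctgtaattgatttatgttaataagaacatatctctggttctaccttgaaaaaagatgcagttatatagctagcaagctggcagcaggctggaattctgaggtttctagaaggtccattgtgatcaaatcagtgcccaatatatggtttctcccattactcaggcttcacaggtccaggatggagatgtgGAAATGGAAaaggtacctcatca
Gclm: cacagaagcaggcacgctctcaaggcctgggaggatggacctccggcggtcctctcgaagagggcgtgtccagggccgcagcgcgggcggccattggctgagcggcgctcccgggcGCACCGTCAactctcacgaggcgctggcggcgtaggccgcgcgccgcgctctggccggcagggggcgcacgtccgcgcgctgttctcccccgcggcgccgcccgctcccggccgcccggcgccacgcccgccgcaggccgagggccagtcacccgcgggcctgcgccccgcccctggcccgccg
Kcnj10: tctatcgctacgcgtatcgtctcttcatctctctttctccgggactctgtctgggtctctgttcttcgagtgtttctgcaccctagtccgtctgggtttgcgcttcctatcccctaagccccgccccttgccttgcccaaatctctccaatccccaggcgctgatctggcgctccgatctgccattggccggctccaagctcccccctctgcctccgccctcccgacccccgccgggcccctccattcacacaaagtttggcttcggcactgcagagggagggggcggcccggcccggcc

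Among all 32851 windows of the table, GAAANNGAA was found in 8.56%, TTCNNNGAA in 8.3%, TGANTCA in 7.81%, and TGACNNNGC in 12.4%. Of the 6 called genes with a higher response and a window, 3 held GAAANNGAA (BC147527, Slc28a2b, and Kcnab1), and of the 10 with a lower response 1 did (Egr2). TGACNNNGC was found in 1 of the 6 (Kcnab1) and in 3 of the 10 (Gclm, Egr2, and Itgax), TTCNNNGAA in Kcnab1, and TGANTCA in Itgax. Kcnab1 and Egr2 had several start sites, and so more than 1 window each. A gene was counted if any of its windows held a match, so the counts of genes are not directly comparable with the shares of windows. In BC147527 the match began 110 bases before the start site of its window, and in Gclm 134 bases before. In Slc28a2b it lay after the start site. The annotated BC147527 gene begins at 120300233 on chromosome 13, so its match lies inside the gene. The annotated Gclm gene begins at 122245487 on chromosome 3, and its match lies before that base. A match is a description of letters and not a binding site.

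Sort1 and Kcnj10 were, with Cxcl11, the genes whose call was kept in all 31 alternative analyses. Kcnj10 encodes the inward rectifier potassium channel Kir4.1. Log2 signals of Kcnj10 were 5.85, 5.47, 5.34, and 5.43 in WT RM arrays, 5.76, 5.02, 5.14, and 4.77 in WT TCM-BMDM, 8.42, 9.60, 9.39, and 8.53 in Camkk2-/- RM-BMDM, and 5.51, 5.65, 5.69, and 5.00 in Camkk2-/- TCM-BMDM. Only the Camkk2-/- RM arrays stood clear of background, and the other groups overlapped around it. The difference between genotypes was 3.46 (adjusted p = 8.95e-08) in RM and 0.29 (adjusted p = 0.683) in TCM, and the interaction was −3.17 (standard error 0.37, adjusted p = 0.000357).

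Sort1 encodes sortilin, a receptor that sorts proteins between the Golgi apparatus, endosomes, and the cell surface. Its log2 signal was 10.98, 10.92, 11.28, and 11.50 in WT RM arrays, 11.28, 11.001, 11.08, and 10.97 in WT TCM-BMDM, 12.18, 12.15, 12.21, and 12.07 in Camkk2-/- RM-BMDM, and 10.42, 10.43, 10.26, and 10.41 in Camkk2-/- TCM-BMDM. WT arrays lay between the Camkk2-/- groups, above one and below the other, with no overlap. The difference between genotypes was 0.98 (adjusted p = 0.00106) in RM and −0.70 (adjusted p = 0.00759) in TCM. The interaction was −1.68 (standard error 0.21, adjusted p = 0.000987), and the response in WT BMDM was −0.09 (adjusted p = 0.878). Gpc1, a cell surface heparan sulfate proteoglycan, had the same arrangement, with signals of 9.13 to 9.48 in Camkk2-/- RM-BMDM, 7.82 to 7.98 in Camkk2-/- TCM-BMDM, and 8.24 to 8.82 in the WT groups. Its interaction was −1.40 (standard error 0.23, adjusted p = 0.014).

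Pdlim4 and Fn1 resembled Kcnj10, in that the Camkk2-/- RM arrays were the high ones. Pdlim4, an actin-associated PDZ and LIM domain protein, had log2 signals of 7.90, 8.06, 7.92, and 8.10 in WT RM arrays, 8.37, 7.90, 8.13, and 8.16 in WT TCM-BMDM, 9.16, 9.12, 9.38, and 9.19 in Camkk2-/- RM-BMDM, and 8.04, 8.10, 8.12, and 8.11 in Camkk2-/- TCM-BMDM. The WT groups and the Camkk2-/- TCM group overlapped. The interaction was −1.27 (standard error 0.20, adjusted p = 0.00914). Fn1 encodes fibronectin, and its log2 signal was 9.84, 9.06, 9.91, and 9.35 in WT RM arrays, 10.71, 10.48, 10.52, and 10.10 in WT TCM-BMDM, 12.87, 12.52, 11.90, and 11.67 in Camkk2-/- RM-BMDM, and 10.49, 10.48, 8.13, and 10.31 in Camkk2-/- TCM-BMDM. The other Camkk2-/- TCM arrays lay among the WT TCM arrays, and replicate 3 was below all arrays. The interaction of Fn1 was −3.30 (standard error 0.56, adjusted p = 0.0189), and without Camkk2-/- TCM replicate 3 it was −2.72 (adjusted p = 0.00247). The call was lost in 3 of the 16 fits that left out 1 array, with the highest adjusted p without WT RM replicate 2 (0.068).

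Gclm and genes of surface receptors and signaling were lowest in Camkk2-/- TCM-BMDM. Gclm encodes the modifier subunit of glutamate-cysteine ligase, which makes the precursor of the antioxidant glutathione. For Gclm the log2 signal was 13.81, 13.99, 13.996, and 13.92 in WT RM arrays, 13.42, 12.96, 12.93, and 12.86 in WT TCM-BMDM, 14.27, 14.27, 14.17, and 14.19 in Camkk2-/- RM-BMDM, and 11.69, 12.17, 11.99, and 11.47 in Camkk2-/- TCM-BMDM. It fell with TCM in both genotypes without overlap, by 0.88 in WT and by 2.40 in Camkk2-/- BMDM. The interaction was −1.51 (standard error 0.24, adjusted p = 0.00914).

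Itgax encodes the integrin CD11c, which is abundant on dendritic cells and some macrophages. CD11c transcript had log2 signals of 10.71, 10.50, 10.85, and 10.25 in WT RM arrays, 10.57, 9.90, 10.33, and 9.95 in WT TCM-BMDM, 11.39, 11.59, 11.10, and 11.46 in Camkk2-/- RM-BMDM, and 9.001, 9.07, 7.46, and 9.36 in Camkk2-/- TCM-BMDM. The WT groups overlapped, and the Camkk2-/- groups lay above and below them. The interaction was −2.28 (standard error 0.42, adjusted p = 0.0256) and was −1.85 (adjusted p = 0.00833) without Camkk2-/- TCM replicate 3, the lowest array. Its call was kept in 8 of the 16 fits that left out 1 array and was lost in the others, with the highest adjusted p without WT RM replicate 2 (0.0759). Of 12 dendritic cell markers, among which Itgax was counted, no other passed the test, and Zbtb46, Flt3, Clec9a, Cd209a, Xcr1, and Itgae were below background in all groups. At an unadjusted p under 0.05, 2 of the 12 were negative, Itgax and Batf3 (−0.89, adjusted p = 0.352), and 0 were positive. Of all probe sets 4.69% were negative and 3.48% positive at that level. The median interaction of the 12 was 0.27, and 7 of them had a positive sign. Mean log2 signals of these markers were 6.05 to 6.23 in WT RM, 5.90 to 6.40 in Camkk2-/- RM, 6.06 to 6.25 in WT TCM, and 6.13 to 6.43 in Camkk2-/- TCM arrays.

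Hvcn1, Prkcb, and Rhob take part in signaling or in the respiratory burst. Hvcn1 encodes the voltage-gated proton channel that balances charge during the burst, and its log2 signal was 7.21 to 7.90 in Camkk2-/- TCM-BMDM against 8.73 to 11.09 in the other arrays (interaction −2.33, standard error 0.42, adjusted p = 0.0241). Hvcn1 lies on chromosome 5 (122206805 to 122242297), near the targeted gene Camkk2 (122718380 to 122779522). Whether this position bears on its signal was not tested. Prkcb encodes protein kinase C beta. Its signal was 12.12 to 12.55 in Camkk2-/- TCM-BMDM, 13.38 to 14.01 in WT TCM-BMDM, and 14.05 to 14.63 in RM arrays of both genotypes, so it was lower in TCM in both (interaction −1.18, standard error 0.23, adjusted p = 0.0428). The Prkcb call was kept in 2 of the 16 fits that left out 1 array and in 11 of all 31 alternatives, the fewest of the 28 genes. Rhob, a small GTPase of endosomes, was at 8.44 to 9.04 in Camkk2-/- TCM-BMDM and at 9.56 to 10.66 in the other arrays (interaction −1.69, standard error 0.30, adjusted p = 0.0241).

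Egr2 and Fcrls belong to genes linked with alternative activation of macrophages. Egr2, a zinc finger transcription factor, was at 11.11 to 12.09 in Camkk2-/- TCM-BMDM and at 12.71 to 13.67 in the other arrays (interaction −1.46, standard error 0.27, adjusted p = 0.0256). Fcrls, an Fc receptor-like molecule known in the mouse from microglia, was at 10.19 to 11.62 in Camkk2-/- TCM-BMDM and at 11.71 to 14.10 elsewhere (interaction −2.52, standard error 0.49, adjusted p = 0.0417). The call for Fcrls was kept in 3 of the 16 fits that left out 1 array. Mamdc2, a MAM domain protein, had log2 signals of 13.94, 13.14, 13.79, and 13.03 in WT RM arrays, 12.46, 11.99, 12.82, and 12.25 in WT TCM-BMDM, 13.51, 13.16, 13.11, and 13.66 in Camkk2-/- RM-BMDM, and 10.23, 9.35, 7.75, and 10.14 in Camkk2-/- TCM-BMDM. TCM arrays of Camkk2-/- cells were below all others, with replicate 3 again the lowest, and the interaction was −2.90 (standard error 0.54, adjusted p = 0.0259). The call was kept in 8 of the 16 fits that left out 1 array, with the highest adjusted p without WT RM replicate 2 (0.0897).

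Fam20c and Man2a2 encode enzymes of the secretory pathway. Fam20c, the Golgi kinase that phosphorylates secreted proteins, was the called gene that was lower in Camkk2-/- BMDM in both media. Fam20c log2 signals were 13.07, 12.87, 13.08, and 13.01 in WT RM arrays, 13.07, 13.10, 12.65, and 12.58 in WT TCM-BMDM, 11.60, 11.46, 11.38, and 11.90 in Camkk2-/- RM-BMDM, and 10.15, 9.80, 9.27, and 10.20 in Camkk2-/- TCM-BMDM. The WT groups overlapped, and the difference between genotypes went from −1.42 in RM to −2.996 in TCM (interaction −1.57, standard error 0.28, adjusted p = 0.0241). Man2a2, a mannosidase of N-glycan processing, was at 9.02 to 9.25 in Camkk2-/- TCM-BMDM, 9.55 to 10.09 in WT TCM-BMDM, and 10.47 to 11.56 in RM arrays (interaction −1.30, standard error 0.24, adjusted p = 0.0259).

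The last genes with a lower response had low signals. Lrrc32, known as GARP, holds latent TGF-beta at the cell surface, and its log2 signal was 6.62 to 7.53 in Camkk2-/- RM-BMDM, 5.94 to 6.39 in WT RM-BMDM, 4.92 to 5.86 in WT TCM-BMDM, and 4.24 to 4.91 in Camkk2-/- TCM-BMDM (interaction −1.88, standard error 0.33, adjusted p = 0.0234). P2ry1, a receptor for ADP, was at 5.27 to 5.63 in Camkk2-/- TCM-BMDM and at 6.11 to 7.36 elsewhere (interaction −1.54, standard error 0.28, adjusted p = 0.0256). Nudt12, a hydrolase of NADH and of NAD-capped RNA, was at 4.39 to 4.93 in Camkk2-/- TCM-BMDM and at 5.37 to 6.44 in the other arrays (interaction −1.52, standard error 0.29, adjusted p = 0.0301). All 3 had a Camkk2-/- TCM mean below background, so their interactions are bounded by the floor of the measurement.

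Several genes lay just outside the threshold. Trim30b, a gene of the TRIM30 family with close paralogs, had an interaction of 2.27 (standard error 0.46, adjusted p = 0.0513). Lilra6, an immunoglobulin-like receptor with near-identical relatives, had 1.21 (adjusted p = 0.0514), Vat1, a vesicle membrane protein, −0.95 (adjusted p = 0.0526), and Txnrd1, thioredoxin reductase, −1.41 (adjusted p = 0.0526). Cysltr2, a cysteinyl leukotriene receptor, had 1.61 and the splicing factor gene Prpf38a 1.29 (adjusted p = 0.0564 for both). Prkcb (adjusted p = 0.0428) was the called gene nearest to the threshold.

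Of the lists of genes by pathway, the interferon responses had the highest medians. Among 48 genes of the type I interferon response, 46 had a positive interaction, 21 of them at an unadjusted p under 0.05, and 0 were negative at that level. None passed the adjusted test. Over all probe sets 3.48% were positive and 4.69% negative at the unadjusted level, and 45.8% had a positive interaction. Counts for this and the later lists stand beside these shares. The list's median interaction was 0.80, against −0.03 over all probe sets, and its median response was 1.20 in WT and 1.92 in Camkk2-/- BMDM. Isg15, a ubiquitin-like modifier, had an interaction of 1.46 (adjusted p = 0.17), Parp9, which acts in ADP-ribosylation, 0.95 (adjusted p = 0.237), and Uba7, the activating enzyme of Isg15, 1.02 (adjusted p = 0.27).

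The size of the type I list's shift moved with single arrays. Its mean log2 signal was 13.91, 13.84, 12.76, and 13.81 in WT TCM-BMDM and 14.91, 14.93, 14.98, and 14.60 in Camkk2-/- TCM-BMDM, against 11.49 to 12.63 in WT RM and 11.84 to 12.86 in Camkk2-/- RM arrays. WT TCM replicate 3 was near the RM arrays, and all Camkk2-/- TCM arrays were above all WT TCM arrays. Without that replicate the median interaction was 0.58, 44 of 48 genes were positive, and 13 rather than 21 had a positive interaction at an unadjusted p under 0.05. That count was also 13 without WT RM replicate 3, WT RM replicate 4, or Camkk2-/- RM replicate 1, with medians of 0.64, 0.71, and 0.63. Over all 16 fits that left out 1 array it ran from 13 to 29, the median ran from 0.58 to 0.98, and 0 genes were negative at that level. Without WT TCM replicates 1 and 3 the median was 0.61 and the count 10.

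Among 23 genes of the type II interferon response, Cxcl11 and Gbp8 passed the test and 14 had a positive interaction at an unadjusted p under 0.05, with 0 negative. The median was 1.04, and the median response was 0.96 in WT and 2.24 in Camkk2-/- BMDM. Socs1, a feedback inhibitor of cytokine receptor signaling, had log2 signals of 5.14, 5.10, 6.08, and 5.08 in WT RM arrays, 6.75, 6.13, 5.56, and 6.39 in WT TCM-BMDM, 5.90, 5.33, 5.21, and 5.19 in Camkk2-/- RM-BMDM, and 8.90, 8.59, 8.00, and 7.51 in Camkk2-/- TCM-BMDM. Only the last group was clear of the others, and the interaction was 1.98 (standard error 0.42, adjusted p = 0.0716).

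Neutrophil and inflammatory monocyte transcripts were also high in TCM arrays. The mean log2 signal of 19 neutrophil markers was 7.33 to 7.96 in WT RM, 7.54 to 8.41 in Camkk2-/- RM, 8.64 to 9.88 in WT TCM, and 9.54 to 10.69 in Camkk2-/- TCM arrays, with WT TCM replicate 3 the lowest of the TCM arrays. None passed the interaction test, 2 were positive and 1 negative at an unadjusted p under 0.05, and Camp and Cebpe were below background in all groups. Of 9 inflammatory monocyte markers (means of 9.60 to 10.99, 10.77 to 11.90, 11.50 to 13.84, and 13.25 to 14.29 in the same order) only Fn1 passed, with a negative interaction, and Plac8 had an interaction of 1.72 (adjusted p = 0.352). The part of such cells in the interactions was not tested. B cell, T and NK cell, mast cell and basophil, and erythroid and megakaryocyte markers (9, 10, 10, and 5 probe sets) had 0 members past the test and 0 at an unadjusted p under 0.05 in either direction (limma), and of 11 stromal and epithelial markers 0 passed and only Cdh1 (1.52, adjusted p = 0.195) was past that level. Of these 5 lists, 5, 6, 3, 3, and 7 markers were below background in all groups. Mast cell and basophil markers were also higher in TCM arrays. Their mean log2 signal was 5.45 to 5.76 in WT RM, 5.47 to 6.25 in Camkk2-/- RM, 6.30 to 6.61 in WT TCM, and 6.57 to 7.64 in Camkk2-/- TCM arrays.

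Chemokine, cytokine, and polarization lists held few called genes. Of 28 chemokine ligands only Cxcl11 passed, 3 were positive and 2 negative at an unadjusted p under 0.05, and the median was 0.09. Ccl24, an eosinophil chemokine, had −2.14 (adjusted p = 0.21) and Ccl4 had 0.88 (adjusted p = 0.33). Of 17 chemokine receptors 0 passed the test and 1 lay in each direction at that level, with Ccr9, the receptor of gut-homing cells, at 2.09 (adjusted p = 0.362) and the complement receptor C5ar1 at −0.80 (adjusted p = 0.469). Of 39 cytokines and growth factors 0 passed, with 9 positive and 3 negative at an unadjusted p under 0.05. For all probe sets the shares were 3.48% positive and 4.69% negative. Among these were Tnfsf15 (2.03, adjusted p = 0.109), Il27 (1.46, adjusted p = 0.118), and Il18 (1.00, adjusted p = 0.137).

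Among 20 classical (M1) activation genes only Cxcl11 passed, the median was 0.26, and 3 genes were positive and 1 negative at an unadjusted p under 0.05. Cd86, a ligand of T cell co-stimulation, had 0.94 (adjusted p = 0.414) and Il6 0.80 (adjusted p = 0.539). Among 23 alternative (M2) activation genes Egr2 and Fcrls passed with negative values, 1 was positive and 7 negative at that level, and the median was 0.00. Of all probe sets 3.48% were positive and 4.69% negative at that level. The scavenger receptor gene Stab1 had −1.40 (adjusted p = 0.118). Of 11 MHC class II genes 0 passed, with H2-Eb2 at 0.99 (adjusted p = 0.471) and H2-Eb1 at −0.57 (adjusted p = 0.494) the only ones past the unadjusted level, and of 19 probe sets of 18 co-stimulatory and co-inhibitory ligands 0 passed, with Cd86 and the negative Cd276 (−0.67, adjusted p = 0.556) past it.

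Genes that the study names, for these arrays or from other assays of expression, gave wide intervals. Cxcl10, another CXCR3 ligand, had log2 signals of 9.45, 9.85, 9.90, and 9.04 in WT RM arrays, 13.90, 14.08, 9.70, and 12.01 in WT TCM-BMDM, 9.85, 10.46, 10.22, and 10.68 in Camkk2-/- RM-BMDM, and 15.27, 15.31, 15.02, and 13.93 in Camkk2-/- TCM-BMDM. WT TCM replicate 3 was within the range of the RM arrays, and the TCM groups overlapped. The interaction was 1.72 with a 95% confidence interval of −0.12 to 3.55 (adjusted p = 0.643), so neither equal responses nor a large difference can be set aside. Nos2, the inducible nitric oxide synthase, had 1.36 (−0.17 to 2.89, adjusted p = 0.677), and Ccl12, a monocyte chemokine, 1.33 (0.16 to 2.50, adjusted p = 0.516). Ccl8, also a monocyte chemokine, had 0.55 (−0.75 to 1.86, adjusted p = 0.898), Cxcl9 −0.35 (−1.21 to 0.50, adjusted p = 0.902), and Cxcl14 −0.70 (−1.75 to 0.34, adjusted p = 0.803). Arg1, arginase, had 0.00 (−0.92 to 0.92, adjusted p = 1), Chil3, a chitinase-like protein, 0.23 (−1.93 to 2.39, adjusted p = 0.98), and Retnla, which was below background in all groups, −0.47 (−1.17 to 0.24, adjusted p = 0.807).

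Metabolic lists had negative medians. NRF2 is a transcription factor that switches on antioxidant genes, and a list of 22 of its targets was added after Gclm had been seen among the called genes, so it gives no independent support. Of these, 21 had a negative interaction, 9 of them at an unadjusted p under 0.05 with 0 positive, Gclm alone passed, and the median was −0.54. Among all probe sets 4.69% were negative at that level. The mean log2 signal of the list was 12.41 to 12.55 in WT RM and 12.43 to 12.50 in Camkk2-/- RM arrays, 11.87 to 12.43 in WT TCM, and 11.31 to 11.56 in Camkk2-/- TCM arrays. The TCM groups did not overlap, and the RM groups did. Txnrd1 (given above) and Ephx1, an epoxide hydrolase (−1.89, adjusted p = 0.0838), had the smallest p after Gclm.

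Of 26 genes of sterol and fatty acid synthesis 0 passed the test, 3 had a negative interaction at an unadjusted p under 0.05 and 0 a positive one, and the median was −0.50, with median responses of −0.29 in WT and −0.86 in Camkk2-/- BMDM. Over all probe sets the shares at that unadjusted level were 4.69% negative and 3.48% positive. The named members were Hsd17b7 (−1.09, adjusted p = 0.454) and Dhcr7 (−0.62, adjusted p = 0.574), enzymes of cholesterol synthesis, and the desaturase Fads1 (−0.92, adjusted p = 0.492). The list's mean signal was 9.70 to 10.65 in WT TCM and 9.13 to 9.67 in Camkk2-/- TCM arrays, which did not overlap. Leaving out 1 array gave medians of −0.68 (without WT RM replicate 1) to −0.29 (without WT TCM replicate 1), with 1 to 7 genes negative at the unadjusted level. There was 1 such gene without WT RM replicate 2, Camkk2-/- RM replicate 2, WT TCM replicate 1, or Camkk2-/- TCM replicate 3, and there were 7 without WT RM replicate 1 or WT TCM replicate 4, 6 without Camkk2-/- RM replicate 3, and 5 without Camkk2-/- RM replicate 4, WT TCM replicate 3, or Camkk2-/- TCM replicate 1. A block for the replicate number gave 8 negative and 1 positive, and a block for the number within genotype gave 11 and 1. Of 21 genes of cholesterol efflux and lipid handling 0 passed and 5 were negative at that level, with 0 positive, among them Cd36 (−0.82, adjusted p = 0.254), the lysosomal acid lipase gene Lipa (−0.66, adjusted p = 0.26), and the lipoprotein lipase gene Lpl (−0.79, adjusted p = 0.26).

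Among 20 integrins, Itgax passed and 16 had a negative interaction, 6 of them at an unadjusted p under 0.05 with 0 positive, and the median was −0.32. Among all probe sets 45.8% had a positive interaction, and 4.69% were negative and 3.48% positive at that level. Itgad, a CD11 integrin that was below background in all groups, had −0.90 (adjusted p = 0.259) and Itgb5 −0.82 (adjusted p = 0.362). Among 40 genes of the extracellular matrix and its remodeling, Fn1 passed, with 3 positive and 7 negative at that level, such as the protease inhibitor Timp2 (−0.90, adjusted p = 0.0971) and the metalloproteinase Mmp19 (−1.19, adjusted p = 0.148). Of 26 ion channels and transporters, Kcnj10 and Hvcn1 passed, 1 was positive and 4 negative at that level, and Kcnj2, another inward rectifier, had −0.98 (adjusted p = 0.483).

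In the pathway of CaMKK2 itself no gene passed the interaction test. Of 19 probe sets for calmodulin, CaM kinase, and AMPK genes 0 passed, Camkk2 alone had an unadjusted p under 0.05, and the values ran from −0.60 to 0.99 with a median of −0.21. Of 20 osteoclast and cell fusion genes 0 passed and 2 were negative at that level, Atp6v0d2, a proton pump subunit (−0.90, adjusted p = 0.195), and the adhesion receptor Cd44 (−0.60, adjusted p = 0.491). Of 35 probe sets of immediate early genes Egr2 passed, with Fosl2 (−0.76, adjusted p = 0.435) and Klf2 (0.91, adjusted p = 0.577) also past the unadjusted level. Of 35 cell cycle genes 0 passed, and Ccnd2, cyclin D2, was alone past that level (1.77, adjusted p = 0.193).

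The number of called genes depended on single arrays. Leaving out 1 array at a time gave 10 to 51 called probe sets. The count was 12 without WT RM replicate 2, 10 without WT RM replicate 4, 15, 10, and 17 without Camkk2-/- RM replicates 1, 2, and 4, 18 and 14 without WT TCM replicates 1 and 3, and 13, 18, 18, and 51 without Camkk2-/- TCM replicates 1, 2, 3, and 4. It was 31 and 21 without WT RM replicates 1 and 3, 27 without Camkk2-/- RM replicate 3, and 31 and 29 without WT TCM replicates 2 and 4. Without Camkk2-/- TCM replicate 4, 27 of the 28 genes were among the 51. The calls for Cxcl11, Kcnj10, Sort1, Sectm1a, BC147527, Pdlim4, Gclm, Slc28a2b, and Gpc1 were kept in all 16 of these fits, and no called gene changed sign in any of them. The call was kept in 15 for Akr1c18, 13 for Fn1, 11 for Hvcn1, and 10 for Lrrc32. It was kept in 9 for Fam20c and Rbl1, in 8 for P2ry1, Selenow, Itgax, and Mamdc2, and in 7 for Egr2, Rhob, Kcnab1, and Parp10. The fewest were 5 for Man2a2, 4 for Nudt12, 3 for Fcrls, and 2 for Gbp8 and Prkcb.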

How the data were processed

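RNA of 16 BMDM cultures was measured on Affymetrix mouse GeneChip arrays with 1 channel. The values deposited by the authors are log2 probe set signals. Affymetrix Expression Console appears in the processing notes of the submitters, and Transcriptome Analysis Console in the methods, for differential tests. The normalization, not given in the sources used here, was kept as it stood. Signals (1.63 to 19.6) were used as deposited, with no filter on low signal. Of 28846 probe sets, 6640 controls and 2634 without a gene symbol were left out. The other 19572 represent 19505 genes, of which 55 have more than 1 probe set.

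Groups were taken from the sample titles. The interaction and the 4 simple contrasts were fitted with limma 3.58.1 (lmFit, contrasts.fit, eBayes) in R 4.3.3 over all 16 arrays, with no covariate. Benjamini-Hochberg adjustment ran over all 19572 probe sets, and an adjusted p under 0.05 was a call. The paper describes the arrays of a group as 4 biological replicates. Whether RM and TCM cultures of a genotype shared marrow is not stated. Named genes were Camkk2, all called genes, the 6 nearest above the threshold, from each list the members with the 3 smallest unadjusted p if under 0.05, and genes the study names for these arrays or from other expression assays. Members and lists were chosen with earlier results of these data known. Lists were described by counts and medians and not tested. The code was tested on simulated data.

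Alternatives were leaving out each array, leaving out WT TCM replicates 1 and 3, other variance estimates, array weights, repeated normalization, filters on low signal, other handling of probe sets, replicate blocks, and other thresholds. The NRF2 list and the linear scale were added after seeing the data. Python 3.11.15 with pandas 2.3.3 served for promoter windows.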

Additional observations from a re-analysis of the deposited data

Results flagged for a closer look

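The 28 genes with a called interaction are listed here because their response to TCM differed between the genotypes by the test of the difference itself. The interactions of the genes with a higher response in Camkk2-/- BMDM were 5.43 for Cxcl11, 2.46 for Sectm1a, 1.96 for BC147527, 1.77 for Gbp8, 1.74 for Kcnab1, 1.69 for Akr1c18, 1.62 for Selenow, 1.56 for Slc28a2b, 1.43 for Parp10, and 1.36 for Rbl1. Those of the genes with a lower response were −3.30 for Fn1, −3.17 for Kcnj10, −2.90 for Mamdc2, −2.52 for Fcrls, −2.33 for Hvcn1, −2.28 for Itgax, −1.88 for Lrrc32, −1.69 for Rhob, −1.68 for Sort1, −1.57 for Fam20c, −1.54 for P2ry1, −1.52 for Nudt12, −1.51 for Gclm, −1.46 for Egr2, −1.40 for Gpc1, −1.30 for Man2a2, −1.27 for Pdlim4, and −1.18 for Prkcb.

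Single arrays stood apart from the other 3 of their group in 23 of 348 groups examined (87 probe sets), where chance alone flags about 1 in 20. Of these, 5 concerned called genes. In Camkk2-/- TCM replicate 3, Sort1 was at 10.26 (others 10.41 to 10.43), Fn1 at 8.13 (others 10.31 to 10.49), and P2ry1 at 5.63 (others 5.27 to 5.28). In WT TCM replicate 3, P2ry1 was at 7.36 (others 6.71 to 6.78), Stab1 at 10.00 (others 9.15 to 9.24), Parp9 at 10.64 (others 11.25 to 11.38), and Uba7 at 10.15 (others 10.57 to 10.61). Gbp8 was at 10.58 in WT TCM replicate 4 (others 9.47 to 9.66). In Camkk2-/- TCM replicate 4, Trim30b was at 10.47 (others 11.42 to 11.58) and the stefin gene Stfa1 at 4.30 (others 5.13 to 5.25), and in Camkk2-/- TCM replicate 2 Csf1r was at 16.83 (others 16.50 to 16.53).

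In WT RM replicate 4, Lilra6 was at 9.86, Itgad at 4.01, Cd86 at 10.30, and Stfa1 at 2.67, with other arrays at 10.24 to 10.28, 4.60 to 4.70, 9.71 to 9.74, and 3.19 to 3.28. Socs1 was at 6.08 in WT RM replicate 3 (others 5.08 to 5.14) and Csf1r at 17.42 in WT RM replicate 1 (others 16.99 to 17.04). In WT TCM replicate 1, Timp2 was at 14.23 (others 14.41 to 14.44) and Cd276 at 9.29 (others 8.28 to 8.38). In Camkk2-/- RM arrays, Lpl was at 17.59 in replicate 1 (others 17.33 to 17.37), H2-Eb2 at 6.03 in replicate 2 (others 4.81 to 4.96), Cd276 at 6.63 in replicate 3 (others 7.21 to 7.28), and Klf2 at 10.09 in replicate 4 (others 9.12 to 9.22).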

How the results depend on the processing

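With all arrays 28 probe sets passed the interaction test, and leaving out 1 array gave 10 to 51. Without WT TCM replicates 1 and 3 there were 4. A block for the replicate number gave 32 and a block for the number within genotype 54. Same-numbered RM and TCM arrays of a genotype had correlations of their deviations of −0.13 to 0.19, with 5 of 8 above 0.1. In WT 3 of 4 RM arrays, and in Camkk2-/- also 3 of 4, correlated best with the TCM array of their own number. Pairing by number is not stated, and these values do not decide it, so the main fit has no block. Without shrinkage of the variance 9 passed, at an adjusted p under 0.01 7, and at an adjusted p under 0.1 49. Counts ran from 27 to 42 under the other 11 changes of model, normalization, or filter.

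Cxcl11, Kcnj10, and Sort1 were called in all 31 alternatives at the same threshold. Of these 31, Prkcb lost its call in 20, Gbp8 in 18, Fcrls in 17, Nudt12 in 15, Man2a2 in 14, Parp10 and Kcnab1 in 12, Egr2, Itgax, Mamdc2, and Rhob in 11, and P2ry1 and Selenow in 10. The other called genes lost it in 0 to 9, where filters on low signal left Akr1c18 out of 2 and Sectm1a out of 1 of the 31. Akr1c18 lost its call without WT RM replicate 2, and Fn1 without WT RM replicates 2 and 4 and Camkk2-/- RM replicate 2. No called gene reversed. The Camkk2 interaction was 0.77 to 1.22 and was never called. The Chil3 interaction ran from −0.61 to 0.95 when 1 array was left out and was −0.047 with array weights. That of Arg1 ran from −0.17 to 0.37 and was −0.22 without WT TCM replicates 1 and 3. The cause was not tested. The 8 called genes with a group mean below background are limited by it.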
